A study of Homo sapiens with 4 samples.

Results

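The 10 genes described here encode the Fos proteins FOS, FOSB, FOSL1 and FOSL2, the Jun proteins JUN, JUNB and JUND, and EGR1, ZFP36 and IER2, 3 further immediate early gene products. They were chosen by name, and each was read by the 1 probe set that the platform annotation assigned to it alone, out of 18417 genes with a probe set of their own. The cells were MCF12A, an established non-tumorigenic human breast epithelial line, grown as a monolayer with hydrocortisone, insulin, cholera toxin, epidermal growth factor and horse serum in the medium. One culture received 25 mM ethanol for 1 week and was set against its own unexposed culture (control 1), and another received 2.5 mM acetaldehyde, the first oxidation product of ethanol, for 1 week and was set against a second unexposed culture (control 2). All 4 cultures had the same supplements, each gave 1 Affymetrix Human Gene 1.0 ST array, and a single line with 1 culture per condition limits what the values stand for.

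Immediate early genes are transcribed within minutes of a growth factor, serum or stress signal, from transcription factors that are already present, and their short-lived mRNAs then decline. Fos and Jun proteins are basic leucine zipper factors that pair with each other to form AP-1, which binds the TGANTCA element of target genes. Jun proteins can pair among themselves, whereas Fos proteins need a Jun partner. In epithelial cells AP-1 is known for its part in proliferation, migration and the expression of differentiation genes.

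Intensities are the authors' normalized values on a linear scale, and differences are log2 differences between 2 arrays. Each exposed array and its control seem to have been normalized as a pair of their own, so levels set across the pairs carry that limit. No difference could be checked against replicates, since each condition has 1 array, and this number sets the precision. A gene counted as bright if at least 1 array gave it an intensity of 155, which is the median over all probe sets that name a gene. This held for 9 of the 10 genes and 10373 genes in all, and the 9 reached it on every array. FOSB did not reach it on any. Of the 9 mammary epithelial marker genes with a probe set of their own 8 or 9 reached that intensity on each array, and their median intensity was 3917 with ethanol, 3156 in control 1, 2319 with acetaldehyde and 2134 in control 2. These markers did not share 1 direction. Of the 9, 5 were higher and 4 lower with ethanol than in control 1. With acetaldehyde 4 were higher and 5 lower than in control 2. The basal keratin KRT14 had 3212 with ethanol against 5075 in control 1, and 822 with acetaldehyde against 1587 in control 2, differences of -0.66 and -0.95. EPCAM was at 0.70 and 0.35, KRT8 at 0.75 and 0.22, KRT18 at 0.63 and 0.12, and KRT5 at -0.20 and -0.23. Of 12 non-epithelial markers 3 or 4 reached an intensity of 155, and their median intensity was 59.6 with ethanol, 65.8 in control 1, 94.0 with acetaldehyde and 95.8 in control 2. Their part in the results was not tested. In bulk RNA, fewer cells of a type and less RNA per cell cannot be told apart.

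Promoter windows of 250 bases before and 50 bases from the annotated start were taken from RefSeq (GRCh38.p14) and matched for 9 of the 10 genes, all but FOSL1. Those of EGR1 and FOS, the genes furthest apart between the controls, and of JUNB and ZFP36, which lay lowest with ethanol and close together with both exposures, are shown 5′ to 3′ with every searched motif in capitals. All 4 genes lie on the plus strand, EGR1 at chr5:138465229-138465528, FOS at chr14:75278578-75278877, JUNB at chr19:12791236-12791535 and ZFP36 at chr19:39406597-39406896.
EGR1: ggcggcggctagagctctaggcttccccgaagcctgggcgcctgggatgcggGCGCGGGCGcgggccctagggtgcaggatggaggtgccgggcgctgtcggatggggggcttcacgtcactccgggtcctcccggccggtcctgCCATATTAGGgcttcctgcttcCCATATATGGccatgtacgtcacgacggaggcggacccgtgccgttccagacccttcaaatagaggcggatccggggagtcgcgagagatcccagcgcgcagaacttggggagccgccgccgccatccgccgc
FOS: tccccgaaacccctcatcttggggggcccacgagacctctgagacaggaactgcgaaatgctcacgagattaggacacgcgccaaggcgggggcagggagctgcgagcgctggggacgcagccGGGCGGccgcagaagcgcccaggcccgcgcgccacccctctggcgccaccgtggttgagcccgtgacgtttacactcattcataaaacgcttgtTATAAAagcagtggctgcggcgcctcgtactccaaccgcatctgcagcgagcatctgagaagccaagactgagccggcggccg
JUNB: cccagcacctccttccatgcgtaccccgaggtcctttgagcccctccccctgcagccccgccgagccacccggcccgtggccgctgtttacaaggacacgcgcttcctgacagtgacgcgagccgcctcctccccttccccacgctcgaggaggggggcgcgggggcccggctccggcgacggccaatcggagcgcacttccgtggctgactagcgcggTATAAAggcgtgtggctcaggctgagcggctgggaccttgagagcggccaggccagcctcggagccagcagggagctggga
ZFP36: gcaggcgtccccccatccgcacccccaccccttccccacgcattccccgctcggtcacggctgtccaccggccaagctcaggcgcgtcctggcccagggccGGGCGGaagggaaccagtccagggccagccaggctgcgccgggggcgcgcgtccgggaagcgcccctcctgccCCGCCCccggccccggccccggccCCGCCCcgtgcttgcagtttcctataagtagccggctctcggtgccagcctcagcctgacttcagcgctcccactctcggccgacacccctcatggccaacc

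The motifs searched on both strands were the CArG box, which serum response factor binds, the AP-1 element TGANTCA, the cAMP response element TGACGTCA, the EGR element GCGNGGGCG, the TATA box TATAAA and the Sp1 element GGGCGG, of which the last can share letters with the EGR element. Among the 9 windows, EGR1 alone had CArG boxes, which start 105 and 83 bases before the start, against 1.29% of 27305 windows with at least 1. EGR1 also held the 1 EGR element, 198 bases before its start (9.28% of all windows). TATAAA was present in FOS, FOSB and JUNB, 33, 30 and 31 bases before the start (12.0% of all windows). ZFP36 had 3 Sp1 elements and 7 of the 9 genes had at least 1, against 44.6% of all windows. JUND held the only TGACGTCA (1.98%) and FOSL2 the only TGANTCA (7.76%), which lies after its start. Sequence outside the windows was not searched. Of the 9 matched genes 5 (JUNB, IER2, JUND, ZFP36 and FOSB) are on chromosome 19, which holds 5.53% of the windows. These matches describe letters in the window.

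With acetaldehyde, 9 of the 10 genes had lower values than in control 2, and FOSL1 alone was higher. The median log2 difference of the 10 was -0.39, against 0.00 over the 10373 bright genes, of which 49.3% were lower. With ethanol, 7 of the 10 were lower than in control 1, while FOS, JUN and FOSL1 were higher, and the median was -0.32 against 0.05 over all bright genes, of which 42.2% were lower. Lower values with both exposures were found for 7 of the 10, FOSB, FOSL2, JUNB, JUND, EGR1, ZFP36 and IER2, against 26.9% of bright genes. Without FOSB, which was not bright, 8 of 9 were lower with acetaldehyde, 6 of 9 with ethanol and 6 of 9 with both. None of the 10 was 2-fold apart in either comparison, against 3.28% of bright genes with ethanol and 0.241% with acetaldehyde. At 1.5-fold, FOS and JUNB were lower with acetaldehyde, against 0.974% of bright genes, and none was lower with ethanol (4.22%). JUNB lay right at that limit.

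**Figure D1:**
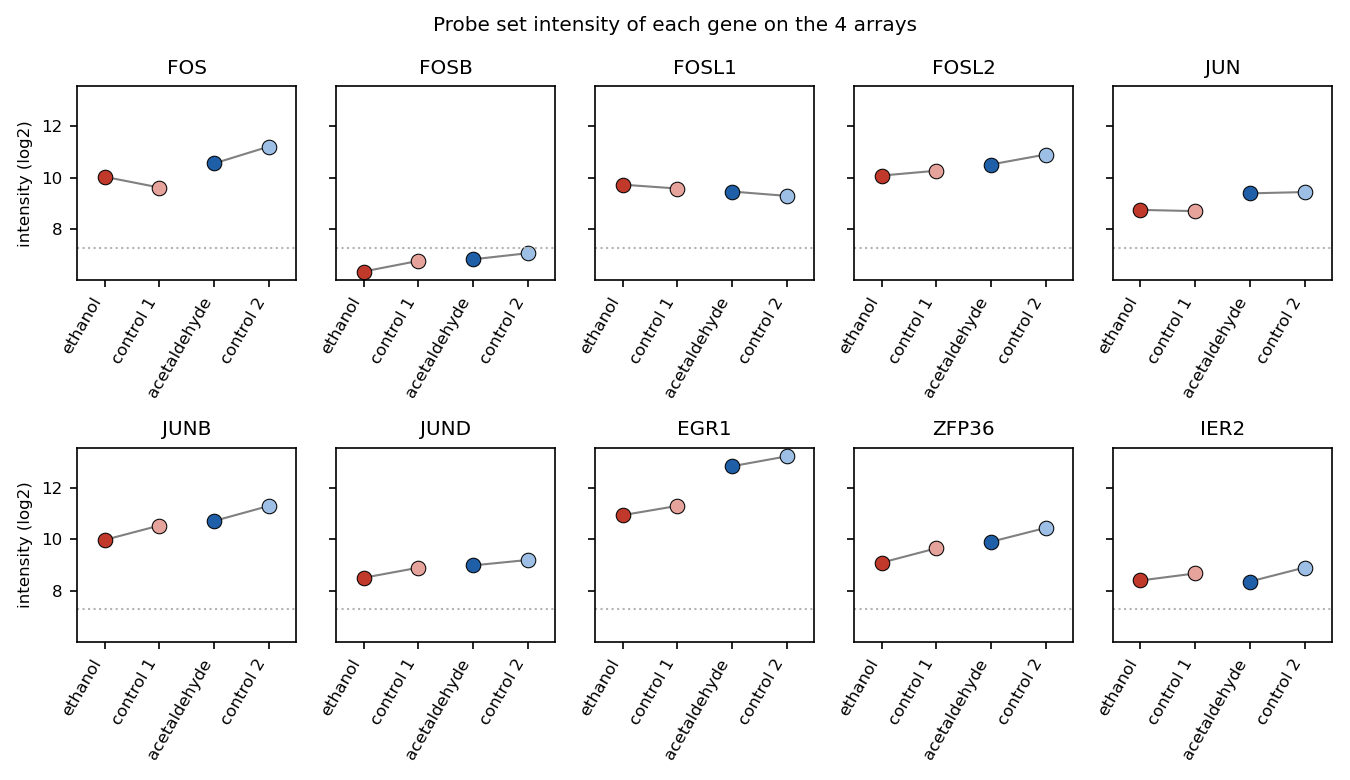
Log2 intensity of the 10 genes on the ethanol, control 1, acetaldehyde and control 2 arrays, 1 point per array, with a line joining each exposed culture and its own control and a dotted line at the bright-gene limit of intensity 155. EGR1 lies far higher on the acetaldehyde and control 2 arrays than on the ethanol and control 1 arrays. FOS also lies higher there, with 10.56 for acetaldehyde against 10.04 for ethanol. FOSB lies below the limit on all 4.

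Among the Fos proteins, FOS is the prototype immediate early factor. Its intensity was 1052 with ethanol against 787 in control 1, and 1508 with acetaldehyde against 2377 in control 2. FOS was thus 1.34-fold higher with ethanol and 1.58-fold lower with acetaldehyde, and the acetaldehyde value lay between the controls. Its acetaldehyde difference of -0.66 was lower than that of all but 0.684% of bright genes, whereas its ethanol difference of 0.42 exceeded those of 88.9%. The ethanol and acetaldehyde differences of FOS lay 1.08 apart on the log2 scale, a gap of at least 1 that 2.87% of bright genes had. For the other 9 genes this gap was at most 0.27, the value of IER2. Opposite signs in the 2 pairs, found for FOS and JUN, were seen in 37.7% of bright genes. Whether the responses of FOS differ was not tested, since each rests on 1 pair of arrays.

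FOSL1 (FRA-1), the Fos protein linked to migration and invasion in breast cancer cells, was higher than its own control in both pairs. Its intensity was 851 with ethanol against 767 in control 1, and 707 with acetaldehyde against 629 in control 2. The differences were 0.15 and 0.17, and FOSL1 was the only one of the 10 with this pattern, which 35.4% of bright genes had. Control 2 was below control 1 by a log2 difference of -0.29, again for FOSL1 alone. The FOS difference minus the FOSL1 difference, which does not depend on the scaling of an array, was 0.27 with ethanol, -0.82 with acetaldehyde and 1.88 for control 2 minus control 1.

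FOSL2 (FRA-2) had a signal of 1087 with ethanol against 1238 in control 1, and 1466 with acetaldehyde against 1918 in control 2. It was lower in both pairs, with differences of -0.19 for ethanol and -0.39 for acetaldehyde. FOSB, which gives rise to the truncated and stable ΔFOSB by splicing, had 81.8 with ethanol against 108.9 in control 1, and 113.6 with acetaldehyde against 134.0 in control 2. Its differences of -0.41 and -0.24 come from dim values on all 4 arrays and are the least certain of the 10.

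The Jun proteins differed among themselves. JUN, the JNK substrate that gave the family its name, had a signal of 431 with ethanol against 417 in control 1, and 673 with acetaldehyde against 697 in control 2. It stayed within 0.05 of its own control in both pairs, and 85.2% of bright genes lay further from control 1 and 77.9% further from control 2. The small ethanol difference of JUN turned to -0.02 when all arrays were quantile normalized together. JUNB, which can oppose JUN on some promoters, had 1007 with ethanol against 1484 in control 1, and 1679 with acetaldehyde against 2518 in control 2. JUNB was thus lower by similar amounts with both exposures, with differences of -0.56 for ethanol and -0.59 for acetaldehyde. JUND had 363 with ethanol against 476 in control 1, and 506 with acetaldehyde against 586 in control 2, with differences of -0.39 and -0.21.

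ZFP36 (tristetraprolin), an RNA-binding protein that promotes decay of AU-rich cytokine and immediate early mRNAs, had log2 differences close to those of JUNB in both pairs. Its intensity was 545 with ethanol against 802 in control 1, and 957 with acetaldehyde against 1393 in control 2. The log2 differences of ZFP36 were -0.56 with ethanol and -0.54 with acetaldehyde. Both genes were lower by at least 0.5 with both exposures, a limit set after their values were seen, as were 0.829% of bright genes. Among all bright genes 4.52% had a lower ethanol difference than JUNB and 4.55% than ZFP36, against 0.964% and 1.14% for acetaldehyde.

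IER2, a nuclear protein of the immediate early response, had a signal of 337 with ethanol against 408 in control 1, and 328 with acetaldehyde against 478 in control 2. Its differences were -0.27 with ethanol and -0.54 with acetaldehyde. EGR1, a zinc finger factor that ERK signalling induces through serum response factor, had 1962 with ethanol against 2520 in control 1, and 7343 with acetaldehyde against 9595 in control 2. It was 1.28-fold lower with ethanol and 1.31-fold lower with acetaldehyde. Across the pairs, EGR1 on the acetaldehyde array lay above control 1 by 1.54 on the log2 scale.

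**Figure D2:**
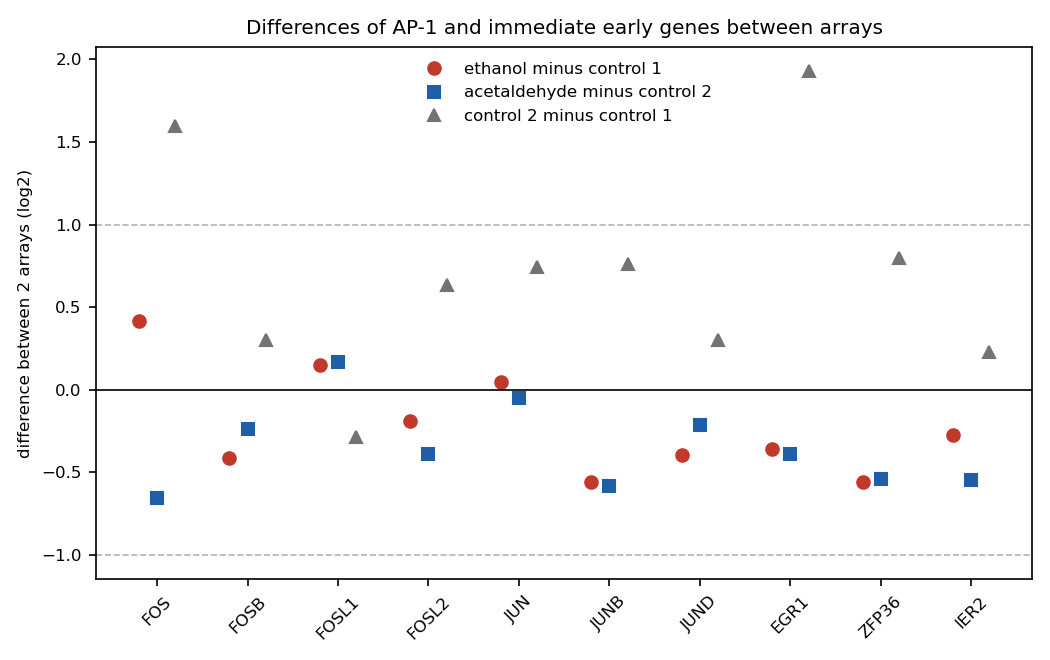
Log2 differences of the 10 genes for ethanol minus control 1 (circles), acetaldehyde minus control 2 (squares) and control 2 minus control 1 (triangles), 1 point per gene, with dashed lines at 2-fold. The exposure differences lie between -0.66 and 0.42, and the differences between the controls reach 1.93 for EGR1 and 1.59 for FOS.

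Between the unexposed cultures, 7 of the 10 genes were further apart than ethanol was from control 1, against 67.9% of bright genes, and 9 of the 10 further than acetaldehyde was from control 2, against 79.3%, so both shares lay near those of all bright genes. Control 2 was higher than control 1 for 9 of the 10 genes, with a median of 0.69 against 0.06 over all bright genes, of which 54.5% were higher. Without FOSB the count was 8 of 9. Cell type markers also differed in this comparison. Of the 9 epithelial ones 5 were lower and 4 higher in control 2, with a list median of -0.25. KRT14, CDH1 and EPCAM were lower by 3.20-fold, 2.51-fold and 2.32-fold. KRT5, ITGA6, ITGB4 and KRT19 were higher, at 0.12, 0.21, 0.58 and 0.84, and KRT19 reached the bright limit in control 2 alone. The 4 bright non-epithelial markers, of 12 named, were all higher in control 2 (54.5% of bright genes), with a median of 0.57. CD14, CD68 and COL1A1 were at 0.56, 0.24 and 0.57. DCN had 177 in control 2 against 34.8 in control 1. DCN was below the bright limit with ethanol and in control 1. It thus counted as bright only through the other pair, and its direction here is partly set by that limit. The part of the markers in the difference between the controls was not tested. EGR1 was 3.81-fold higher and FOS 3.02-fold higher, so 2 of the 10 were at least 2-fold higher, against 4.25% of bright genes. ZFP36 was 1.74-fold higher, JUNB 1.70-fold, JUN 1.67-fold and FOSL2 1.55-fold, so that 6 of the 10 were at least 1.5-fold higher, against 14.9%. JUND, FOSB and IER2 were higher by 0.30, 0.30 and 0.23. The within-array rank, which does not depend on scaling, showed the same order for EGR1, at percentile 95.8 of named probe sets with ethanol and 97.1 in control 1, against 99.6 with acetaldehyde and 99.7 in control 2. FOS stood at percentile 89.9 with ethanol and 86.6 in control 1, against 94.7 with acetaldehyde and 97.3 in control 2.

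The place of the exposed values differed with the control used. Acetaldehyde minus control 2 and control 2 minus control 1 share control 2, and ethanol minus control 1 and control 2 minus control 1 share control 1. On the acetaldehyde array 9 of the 10 values lay between those of the controls, against 45.1% of bright genes, IER2 alone lay below both (24.9%), and none lay above both (30.1%). With ethanol 7 of the 10 lay below both controls, against 28.1% of bright genes, FOS and JUN lay between them (36.7%), and FOSL1 lay above both (35.2%). These places set levels across pairs that seem to have been normalized separately. After joint quantile normalization 8 of the 10 acetaldehyde values lay between the controls (43.9% of bright genes), IER2 and FOSB lay below both (31.2%) and none above both (24.9%), while with ethanol 8 lay below both (31.5%), JUN among them, FOS between them (39.3%) and FOSL1 above both (29.2%). Against control 1, which is not its own control, acetaldehyde was higher for 8 of the 10, against 54.5% of bright genes, with a median of 0.21 against 0.05 over all bright genes. Of the 10, 1 was then at least 2-fold apart, near the 9.62% of bright genes. Ethanol against control 2 was lower for 9 of the 10, against 50.7% of bright genes, with a median of -0.77 against -0.01, and 4 of the 10 were at least 2-fold apart, against 8.78%. The experiment, its normalization and its culture cannot be told apart in the difference between the controls.

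**Figure D3:**
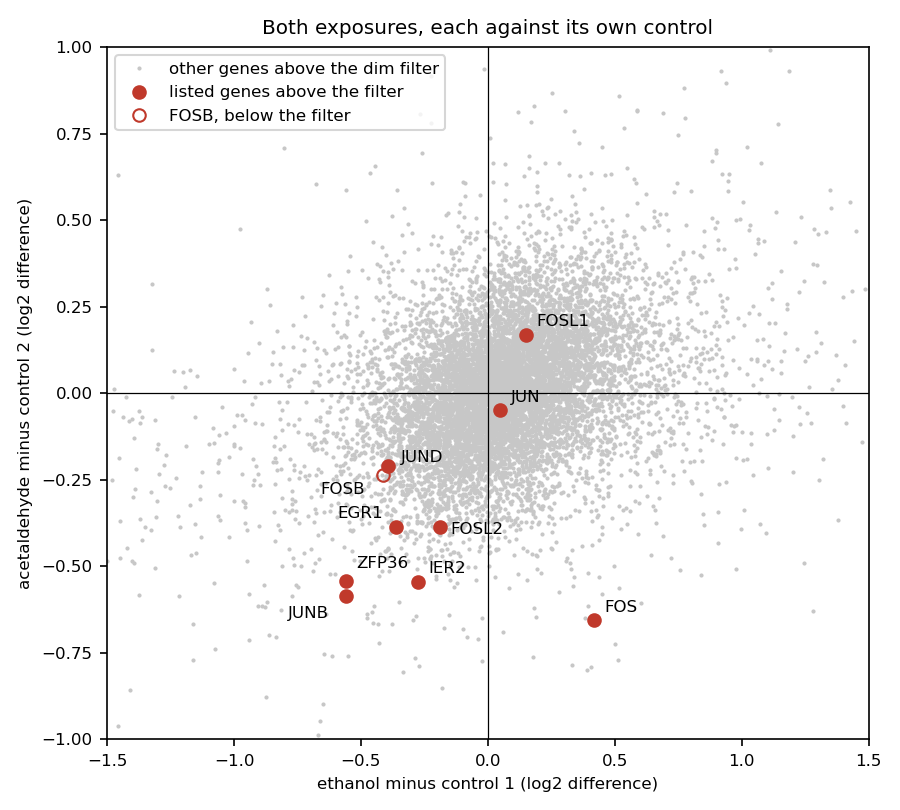
Each bright gene (grey) by its log2 difference for ethanol minus control 1 (horizontal) and acetaldehyde minus control 2 (vertical), with the 9 bright listed genes as filled and FOSB as an open red circle. JUNB and ZFP36 lie together at the lower left, FOS stands apart at the lower right, and 161 bright genes beyond 1.5 horizontally or 1.0 vertically are not drawn.

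The pairs share no array, so both can be put in 1 fit. In limma, blocking on the experiment and setting exposed against unexposed arrays, the mean difference was -0.57 ± 0.11 for JUNB and -0.55 ± 0.11 for ZFP36 (SE, 1 residual degree of freedom), with a limma adjusted p of 0.495 for both. The smallest limma adjusted p of the 9 bright genes was 0.495, while that of FOS was 0.881. None of the 9 was called, as was none of the 10373 genes (0%), although 4 of the 9 and 1024 of all genes had an unadjusted p of at most 0.05. The fit treats 2 different agents as 1 exposure and takes the gap between the 2 responses as a gene's own error, which limma then draws toward a spread shared by all bright genes. For JUNB and ZFP36 the gap alone gave an SE of 0.013 and 0.0083, so the printed errors and the p-values rest mostly on the shared spread (an SE of 0.127, with 3.68 prior degrees of freedom). A missed call does not show equal levels.

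Of 42 other immediate early genes listed, 40 had a probe set of their own and 35 were bright. The 35 had medians of -0.07 with ethanol and -0.08 with acetaldehyde. With ethanol 22 were lower and 13 higher (42.2% of all bright genes were lower). With acetaldehyde 21 were lower and 14 higher (49.3% of all bright genes were lower). CCN2, a matrix-associated growth regulator, had 746 with ethanol against 268 in control 1, the only one of them at least 2-fold higher, but 678 with acetaldehyde against 748 in control 2. PLK2, a polo-like kinase, was at -0.73 with ethanol, and TSC22D1, a leucine zipper protein induced by TGF-beta, at 0.70. With acetaldehyde the kinase SGK1 was lowest at 131 against 283 in control 2, a difference of -1.11 with the exposed value below the bright limit, and PLK3 and CCN1 were at 0.54 and 0.52. Control 2 minus control 1 had a median of 0.11 over this list, against 0.69 for the 10 genes. In control 2, 20 of the 35 were higher and 15 lower (54.5% of bright genes were higher). At least 2-fold higher were 5 of the 35, against 4.25% of bright genes. A further 3 were at least 2-fold lower (9.10% of bright genes were 2-fold apart in either direction). CCN2 and CCN1 were at 1.48 and 1.34, CCN1 being below the bright limit in control 1, and PLK2 was at -1.82.

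**Figure D4:**
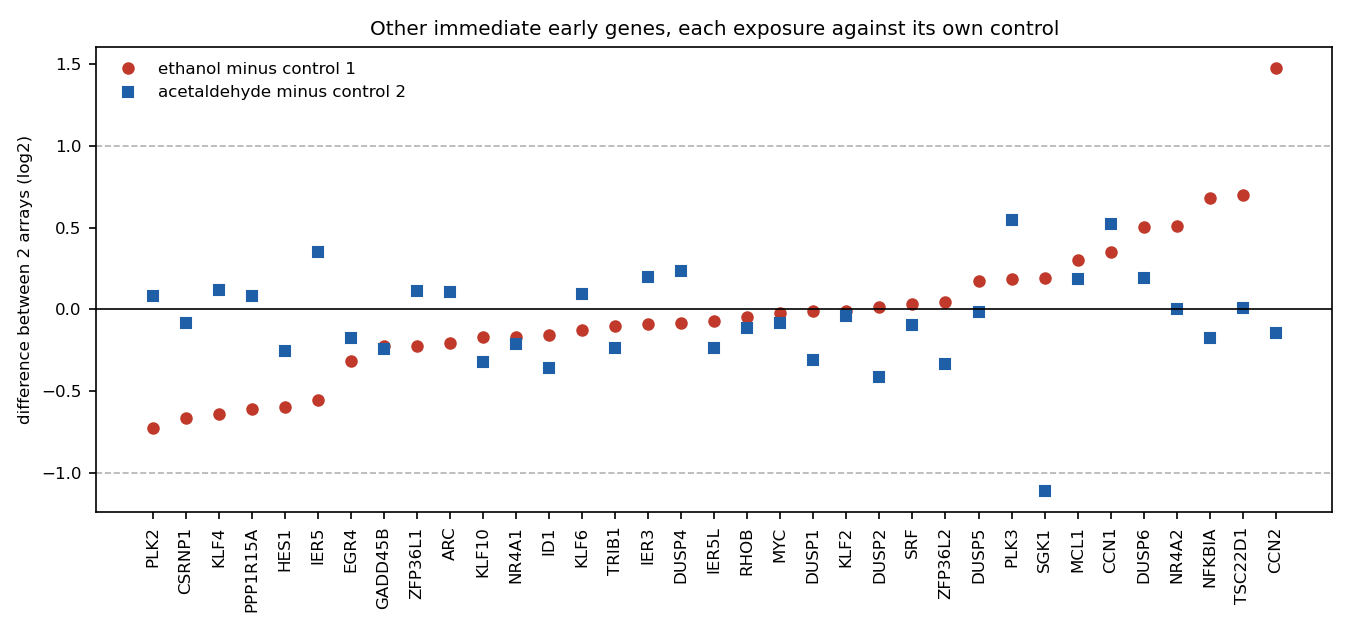
Log2 differences of 35 other bright immediate early genes, ordered by the ethanol difference, for ethanol minus control 1 (circles) and acetaldehyde minus control 2 (squares), with dashed lines at 2-fold. CCN2 with ethanol and SGK1 with acetaldehyde are the 2 values beyond 2-fold.

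Upstream of these genes stand serum response factor, its ETS partners and the ERK, JNK and ribosomal S6 kinases. Of 23 listed upstream genes, 17 had a probe set of their own and 16 were bright. Their medians were 0.07 with ethanol and 0.01 with acetaldehyde. MAPK3 (ERK1) had 672 with ethanol against 1397 in control 1 and was the only one at least 2-fold apart, at -1.06, while with acetaldehyde it had 894 against 1096 in control 2. RPS6KA1, an ERK-activated kinase, was at 0.65 with ethanol, and CREB1, which binds the cAMP response element, at -0.46. With acetaldehyde the largest differences were those of MAPK8 (JNK1) at 0.31, MAPK3 at -0.29 and the ETS factor ELK3 at 0.22.

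Of 20 other basic leucine zipper factors listed, 17 had a probe set of their own and 11 were bright. The 11 had medians of -0.10 with ethanol and 0.00 with acetaldehyde. CEBPD, an acute phase and stress factor, had a signal of 1254 with ethanol against 1777 in control 1, and 2658 with acetaldehyde against 3723 in control 2, with differences of -0.50 and -0.49 and a difference of 1.07 between control 2 and control 1. ATF4 was at -0.71 with ethanol and 0.16 with acetaldehyde, but its dimmer second probe set was at 0.43 and -0.08, so its direction is uncertain. NFE2L2, the antioxidant factor NRF2, was at -0.43 and -0.12, and NFE2L1 at 0.21 and -0.22.

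Of 26 listed AP-1 target genes, 22 had a probe set of their own and 16 were bright. The 16 had medians of 0.16 with ethanol and -0.01 with acetaldehyde and did not share 1 direction. The cornified envelope genes SPRR1B, TGM1 and IVL were at -4.40, -2.96 and -2.68 with ethanol and -1.08, -0.99 and -0.52 with acetaldehyde, IVL being below the bright limit on both exposed arrays, and the stress keratin KRT16 at -2.51 and -1.24. The urokinase PLAU, named after its values were seen, was at 0.77 with ethanol and 0.41 with acetaldehyde. Its receptor PLAUR, named through the ZFP36 target list below, was at 0.98 and 0.36. Between the controls (control 2 minus control 1), SPRR1B, TGM1, IVL and KRT16 were at -1.43, -2.48, -1.77 and -0.64. PLAU and PLAUR were at -1.25 and -1.52 there. Of the 16, 7 were higher and 9 lower in control 2 (54.5% of bright genes were higher). Of 14 listed EGR1 partners and targets, 12 had a probe set of their own and 10 were bright. Of these 10, 5 were higher with ethanol and 6 with acetaldehyde. Among all 10373 bright genes 5991 were higher with ethanol and 5258 with acetaldehyde. THBS1, an adhesive matrix protein, was higher in both pairs, at 5193 with ethanol against 2401 in control 1 and 2079 with acetaldehyde against 1045 in control 2. FN1 was at 1.33 and 0.47, ICAM1 at 0.99 and -0.02, and the tissue factor gene F3 at -0.98 and 0.47. ICAM1 was below the bright limit in control 1, at 130, and F3 in control 2, at 141. For control 2 minus control 1, THBS1, FN1, ICAM1 and F3 were at -1.20, 3.58, 1.64 and -2.13.

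Of 18 listed ZFP36 relatives and target mRNAs, 16 had a probe set of their own and 13 were bright. The 13 had medians of 0.05 with ethanol and 0.20 with acetaldehyde. With acetaldehyde 10 of the 13 were higher, against 5258 of all 10373 bright genes. With ethanol 7 were, against 5991 of the 10373. IL6 was at 1.23 with ethanol and 0.51 with acetaldehyde, with intensities of 157 with ethanol against 66.6 in control 1, and of 170.0 with acetaldehyde against 119 in control 2. IL6 thus counted as bright only through the exposed arrays, both close to the limit. CXCL8, which encodes interleukin-8, had 112 with ethanol against 97.5 in control 1, both below the limit, and 235 with acetaldehyde against 155 in control 2, right at the limit. IL1B, well above the limit on every array, had 790.1 with ethanol against 2168 in control 1, and 926 with acetaldehyde against 599 in control 2, differences of -1.46 and 0.63.

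EGR1 had the widest range of values of the 10 genes, 2.29 log2 units over the 4 arrays. The 5 bright genes nearest to it over the 3 log2 differences were ACTMAP, DUSP8, ALDH6A1, HPD and CDX1, at Euclidean distances of 0.29 to 0.38. All but ACTMAP, 4 of the 5, were below the bright limit both with ethanol and in control 1, so they counted as bright only through the pair of arrays where they were high, and their likeness to EGR1 is partly set by that limit. DUSP8 had 121 with ethanol against 143 in control 1, and 316 with acetaldehyde against 443 in control 2. The likeness rests on 4 arrays.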

How the data were processed

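RNA of 4 MCF12A cultures was measured on 4 arrays. The deposited table holds a linear intensity for every probe set, made by the authors with RMA, per the submitters' processing notes; the software that ran it is not given in the sources used here. Sorted log2 values lay 0.0268 to 0.0398 apart on average within a pair, against 0.270 to 0.285 across pairs. Values were taken to log2 without an offset, as the planned tests needed. Of 33297 probe sets 19460 had 1 gene symbol, 1754 several and 12083 none in the platform annotation, and those with 1 were used. Of several probe sets, a gene was read by its brightest.

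The 10 genes and all lists were chosen with earlier results of these data known. Every one of the 10 genes is described. From each list the 3 largest differences per exposure were named, and the 5 genes nearest to the widest-ranging gene. PLAU and the cell type markers KRT5, KRT18, ITGA6, ITGB4 and DCN were named outside this rule. Matched differences have no test. The blocked fit used limma 3.58.1 in R 4.3.3 with Benjamini-Hochberg adjustment at 0.05 and was tested on simulated data. There it called 68 of 100 genes given a log2 change of 1, 99 of 100 given 3, and 11 of 10173 unchanged genes. Both exposures were given the same change. Changes below 1, the size of the matched exposure differences of the 10 genes, were not simulated. The labels name an ethanol and an acetaldehyde experiment, each with its own control, so what sets the 2 pairs of arrays apart may be technical. The p-values rest on the gap between the ethanol and acetaldehyde responses and on the spread shared by all bright genes. Alternatives were the probe set rule, joint quantile normalization, an offset of 16, centring, a 1.5-fold limit, no dim filter, the other control, no block and an intensity trend. Figures used matplotlib 3.10.9.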

Additional observations from a re-analysis of the deposited data

Results flagged for a closer look

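FOS and JUN lay on opposite sides of their own controls with the 2 exposures. FOS was at 0.42 with ethanol and -0.66 with acetaldehyde, and JUN was at 0.05 and -0.05. The difference between the exposures was not tested, and 37.7% of bright genes had opposite signs in the 2 pairs. For JUN both differences are small, and the ethanol one turned to -0.02 under joint quantile normalization and to -0.0020 after centring.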

How the results depend on the processing

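For the 10 genes and 3 comparisons, taking the mean of all probe sets changed nothing, since each gene has 1. The offset moved no value by more than 0.060 and centring by no more than 0.057. Joint quantile normalization moved values by at most 0.26, the case of FOSB between the controls, which came to 0.04. JUN with ethanol was the 1 value of 30 to take the other sign under joint quantile normalization, and likewise under centring. The control of the other experiment mattered most: with it 11 of 20 values took the other sign, 4 of the 10 genes were at least 2-fold apart with ethanol (8.78% of bright genes) and 1 with acetaldehyde (9.62%), and with acetaldehyde 2 genes were lower in place of 9 and the median turned to 0.2105. With that control, list medians also changed sign for EGR1 partners and targets with ethanol (-0.2662), and with acetaldehyde for other immediate early genes (0.1144), upstream factors (-0.1456) and other leucine zipper factors (0.1294). The AP-1 target median moved most, to -0.6313 with acetaldehyde in place of -0.0075 (0.0507 in place of 0.1592 with ethanol), and the ZFP36 list came to 0.3038 with ethanol in place of 0.0458. At 1.5-fold, 2 genes (FOS and JUNB) were past the limit with acetaldehyde and 6 between the controls. The ethanol median of the ZFP36 list came to 0.0089 under joint normalization and -0.0054 after centring, and the number of bright genes 2-fold apart with acetaldehyde was 25, or 48 without the dim filter. Without the replicate block (the experiment), without the dim filter, with joint normalization and with an intensity trend, limma called 0 genes, with the smallest adjusted p among the 10 between 0.417 and 1.00. No array could be left out, since each condition has 1. Array signal near background limits FOSB most.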
